A study of Mus musculus with 1037 samples.

Results

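The genes of the p53 and G1 control machinery (10 of 55335 gene rows, all found by their Ensembl identifiers) were followed through single cells of the mouse hair follicle: Trp53, Mdm2, Cdkn1a, Cdkn1b, Cdkn1c, Cdkn2c, Ccnd1, Ccnd2, Cdk6 and Rb1. The members were fixed by name and not by a cut on any measured value, though with earlier results of these data known. The cells were wild type epithelial cells of the outer root sheath (ORS), the outermost epithelial layer of the follicle, which houses the hair follicle stem cells (HFSCs) in its upper part. They were sorted by flow cytometry as CD34 and integrin alpha 6 positive cells lacking Sca1 and markers of endothelial, melanocytic, fibroblast and blood cells, and each was sequenced on its own by Smart-seq2, a full-length poly(A) method without molecular identifiers.

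The sorts covered late growth phase (AnaVI) with lower ORS (LOS) and upper-middle ORS (MOS and UOS), and 2 stages of regression. At CatVI, upper ORS cells lay on 6 plates titled P17f (postnatal day 17): plates 1 and 2 as PhagoHFSC alive, 3 and 4 as NonPhagoHFSC alive, 5 as PhagoHFSC apop and 6 as NonPhagoHFSC apop. At CatVII, upper ORS cells came as OSalive and OSapop, annexin V being the marker of apoptosis in the sort. Animals of a stage were pooled before sorting and no cell was traced to an animal. Each sort or plate was therefore 1 sample, no comparison had replicates, and no test was made. The intervals below cover counting error only, and PCR copies are not independent molecules.

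Of 1035 cells of known sort, 463 had 2000 or more detected genes and were used. These were 41.9% of the LOS cells, 52.8% of MOS, 83.6% of UOS, 80.1% of OSalive and 65.2% of OSapop, and on plates 1, 2, 5 and 6 they numbered 19, 9, 15 and 14. Plates 3 and 4 had none (0 of 67 and 0 of 57 cells, which allows shares of up to 5.36% and 6.27% by exact binomial limits), and not a single count of any of the 10 genes. Counts on protein-coding genes outside the mitochondrial genome summed to between 321243 on plate 6 and 46938879 in OSalive, with medians per cell from 19453 to 355644. They were 17.5% of all counts, and 1 row without a gene symbol took 65.5%. Levels are therefore given as CPM: all counts of a gene in the used cells of a sort, divided by all their protein-coding counts and scaled to 1000000. Krt5, Krt14 and the other 8 ORS and bulge markers had counts in every sort, with a summed level from 7260 CPM on plate 2 to 34348 CPM on plate 5. Cd34 had a count in 1 passing cell on each of the 4 P17f plates, but in 48.7% of LOS, 52.6% of MOS, 94.6% of UOS, 68% of OSalive and 68.5% of OSapop cells. Within a sort, 160 well labels stood on 2 cells, 99 times with both cells in use, and none of these 99 pairs correlated more closely than every other pair of its sort.

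p53, encoded by Trp53, is a transcription factor that is activated by DNA damage and other stress, and Mdm2, which p53 itself switches on, targets it for degradation. Among the p53 targets is Cdkn1a (p21), which with Cdkn1b (p27) and Cdkn1c (p57) inhibits a broad range of cyclin-dependent kinases, while Cdkn2c (p18) blocks Cdk4 and Cdk6. The D-type cyclins Ccnd1 and Ccnd2 activate these kinases in G1, and the kinases phosphorylate Rb1, which then releases E2F factors. In the follicle, quiescent bulge stem cells and the dividing cells of the growing lower follicle sit at opposite ends of this system.

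Promoter windows, from 250 bases before to 50 bases after a RefSeq start, were given for 6 of the 10 genes (8 windows, GRCm38.p6) and each matched GRCm39 at 1 place. The windows of 2 inhibitors are shown because they were the ones that held a motif searched for, each motif in 1 of the 8 windows. Both genes also had a window nearer the canonical start, 5 and 90 bases after it, and those held none. The capitals in Cdkn1a mark the letters CATGNNNNNNCATG, the core of the p53 site repeated at the spacing of a full site, and those in Cdkn2c mark TTTCGCG, a form of the E2F site. The Cdkn1a window surrounds an upstream start, at -2785 bases from the start of the canonical transcript, at chr17:29309703-29310002 (GRCm39, plus strand). The Cdkn2c window lies at chr4:109522520-109522819 (GRCm39, minus strand), around a start 1474 bases after the canonical one.
Cdkn1a: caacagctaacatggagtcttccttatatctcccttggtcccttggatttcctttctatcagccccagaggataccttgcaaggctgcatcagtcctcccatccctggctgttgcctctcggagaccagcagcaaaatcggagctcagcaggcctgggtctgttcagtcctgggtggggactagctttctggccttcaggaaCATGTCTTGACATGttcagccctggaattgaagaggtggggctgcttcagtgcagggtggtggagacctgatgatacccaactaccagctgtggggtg
Cdkn2c: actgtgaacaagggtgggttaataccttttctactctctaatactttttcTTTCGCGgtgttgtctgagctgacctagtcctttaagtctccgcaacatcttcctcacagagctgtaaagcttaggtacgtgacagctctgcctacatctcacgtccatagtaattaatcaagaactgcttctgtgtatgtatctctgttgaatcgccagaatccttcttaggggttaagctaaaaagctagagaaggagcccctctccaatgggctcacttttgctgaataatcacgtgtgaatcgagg
On either strand, CATGNNNNNNCATG stood in 0.712% and TTTCGCG in 0.849% of 32851 such windows, and TTTGGCG, another E2F form, in 1.56% and in none of the members' windows. A match is a run of letters and not a measured binding site.

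All 10 genes are protein coding, and the counts of some can hold reads of a neighbour, since the library does not keep strand. The canonical transcript of Ccnd1 (chr7:144483668-144493662, GRCm39, minus strand) shares 2315 of its 3796 bases with LTO1 on the other strand, and Cdkn1c (chr7:143012069-143014806, minus strand) shares 589 of 1930 with the long noncoding Gm44732. For Trp53 (chr11:69469669-69482701, plus strand) the overlap with Wrap53 was 28 of 1850 bases, and its processed pseudogene on chromosome 17 took at most 0.92 CPM in any sort. The other 7 genes each shared under 8% of their length with any single gene on the other strand.

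**Figure D1:**
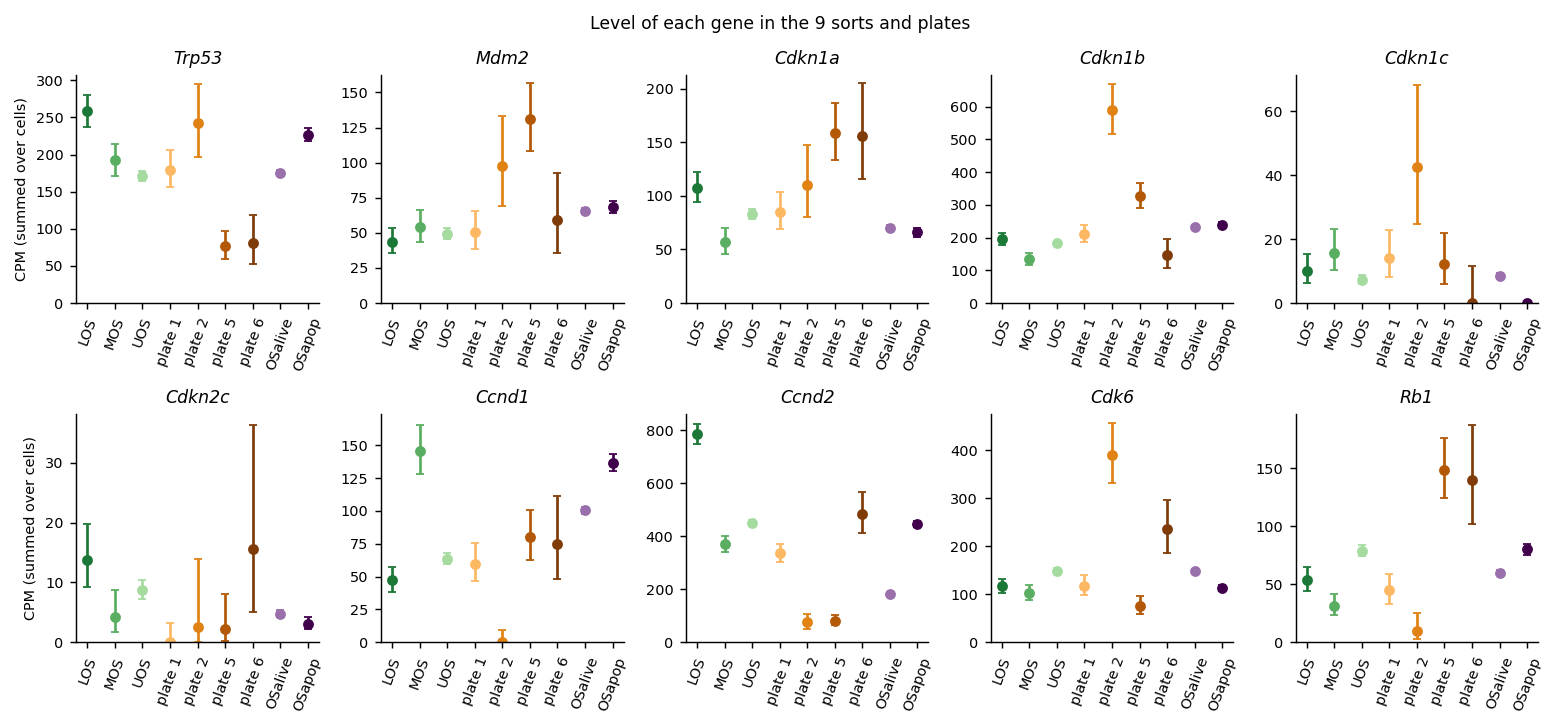
Summed level (CPM) of each gene in the 9 sorts and plates with passing cells; bars are 95% exact Poisson intervals and cover counting error only. Trp53 was lowest and Cdkn1a and Rb1 were highest on plates 5 and 6, and Ccnd2 was highest in LOS.

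Trp53 stood between 171.5 and 257.99 CPM in 7 of the 9 sorts and was lower on the 2 plates of apop cells at CatVI. Its level was 257.99 CPM in LOS, 191.99 in MOS and 171.5 in UOS. At CatVI it was 179.7 on plate 1 and 242.3 on plate 2, against 76.5 on plate 5 and 80.9 on plate 6. At CatVII it was 175.8 in OSalive and 226.9 in OSapop. Plates 5 and 6, with intervals of 59.5 to 96.8 and 52.9 to 118.6, overlapped each other and none of the other 7 sorts. Plate 6 rested on 26 counts in 5 of 14 cells and plate 5 on 69 counts in 13 of 15 cells, and per cell the median was 47.3 CPM on plate 5 against 143.7 in LOS. To compare shares of cells across depths, cells with 10000 or more protein-coding counts were thinned to 10000 and the shallower ones left out. That removed 15 of the 39 LOS cells, 6 each of MOS and OSapop, 1 each of UOS, OSalive and plates 1, 2 and 6, and 0 on plate 5, and all thinned shares below are of the cells that remained. The thinned share with a Trp53 count was 53.3% on plate 5 (95% exact binomial interval 26.6 to 78.7) and 30.8% on plate 6 (9.09 to 61.4). In the other sorts it lay between 56.8% in UOS and 73.3% in OSapop. The shares did not separate plate 5 from the others.

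Mdm2, the ubiquitin ligase of p53, was at 43.7 CPM in LOS, 53.9 in MOS and 49.5 in UOS, and at 65.4 in OSalive and 68.3 in OSapop. On the CatVI plates it was at 50.9, 97.4, 130.8 and 59.15 on plates 1, 2, 5 and 6. All 8 neighbouring pairs in the order of its levels had overlapping intervals. Plate 5 (108.3 to 156.7) stood above all but plate 2, where 1 cell of 9 gave 64.1% of the counts. On plate 6, 1 cell gave 18 of the 19 counts, 94.7%.

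Cdkn1a had its 2 highest levels on the same 2 plates as the lowest Trp53. It was at 158.6 CPM on plate 5 and 155.6 on plate 6, with counts in 80% and 71.4% of cells. Elsewhere it ranged from 56.9 in MOS to 109.9 on plate 2, with 107.1 in LOS, 83.1 in UOS, 85.05 on plate 1, 70.45 in OSalive and 65.9 in OSapop. The intervals of plates 5 (133.6 to 186.8) and 6 (115.5 to 205.2) overlapped that of plate 2 (79.9 to 147.6), and that of plate 6 also overlapped LOS (93.8 to 121.8). The median cell had 135.97 CPM on plate 5 and 170.4 on plate 6 but 0 in LOS, MOS, UOS, OSalive and OSapop. At 10000 counts per cell, 53.3% and 61.5% of cells on plates 5 and 6 kept a count, 62.5% of the 8 on plate 2, and between 20.7% and 29.2% in each of the other 6 sorts.

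Cdkn1b had counts in most cells of every sort. Its level was 195.4 CPM in LOS, 133.2 in MOS, 182.8 in UOS, 233.5 in OSalive and 238.8 in OSapop. On plates 1, 2, 5 and 6 it stood at 211.3, 589.6, 326 and 146.3. After thinning, between 54.2% (LOS) and 84.6% (plate 6) of cells had a count, and all 9 intervals overlapped. The value of plate 2 came for 55.9% from a single cell, so that only plate 5 stood above the rest on counts spread over many cells (top cell 19.4%).

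Cdkn1c, the imprinted inhibitor p57, was a low transcript carried by few cells. It was at 10.1 CPM in LOS, 15.75 in MOS, 7.20 in UOS, 14.03, 42.5 and 12.2 on plates 1, 2 and 5, and 8.37 in OSalive. Plate 6 had 0 counts (3 counts there would be 9.34 CPM). OSapop had 1 count in 13284910, or 0.075 CPM. That set OSapop apart from OSalive, where 393 counts fell in 12.8% of the cells, against 1.09% in OSapop. At 10000 counts per cell the shares were 4.84% (1.80 to 10.2) in OSalive and 0 of 86 cells (up to 4.199) in OSapop, and these intervals overlapped.

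Cdkn2c, the inhibitor of Cdk4 and Cdk6, was at 13.8 CPM in LOS, 4.24 in MOS, 8.69 in UOS, 4.77 in OSalive and 3.09 in OSapop. The CatVI plates held 0, 1, 2 and 5 counts. The largest share of cells with a count was 17.95%, in LOS.

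Ccnd1 and Ccnd2 were ordered differently over the sorts. Ccnd2 was highest in LOS at 786 CPM, followed by 486 on plate 6, 452 in UOS, 445.5 in OSapop, 371 in MOS and 338 on plate 1. It was at 181.7 in OSalive and lowest on plate 5 (82.05) and plate 2 (74.95). LOS did not overlap with any other sort, and OSalive lay apart from both the higher and the lower ones. The thinned share of cells with a Ccnd2 count was highest in LOS too, at 83.3% of the 24 remaining cells (62.6 to 95.3), and lowest on plate 5 at 26.7% (7.79 to 55.1), below plate 2 at 37.5%. Between them lay 68.8% in MOS, 62.2% in UOS, 61.1% on plate 1, 53.8% on plate 6, 41.9% in OSapop and 37.1% in OSalive. Without thinning and over all used cells, the share was 87.2% in LOS and 40% on plate 5. LOS was also the sort with the most transcripts of other lineages: 28 of its 39 cells had counts of 2 or more fibroblast, melanocyte, immune or endothelial markers, and the summed fibroblast markers reached 6923 CPM against 19.96 to 1706 elsewhere. In the 11 LOS cells without them Ccnd2 stood at 260 CPM, against 384 in the 82 such cells of UOS.

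Ccnd1 was highest in MOS at 145.96 CPM and OSapop at 136.7, then 100.4 in OSalive, 79.8 and 74.7 on plates 5 and 6, 63.8 in UOS, 59.6 on plate 1 and 47.4 in LOS. On plate 2 it had no count in 400290, which allows up to 9.22 CPM. Single cells weighed heavily: 50.2% of the MOS counts and 86.8% of those on plate 1 were in 1 cell. The thinned share was between 20% and 32.6% in LOS, MOS, UOS, plates 5 and 6, OSalive and OSapop, and 5.56% on plate 1.

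Cdk6, the kinase partner of both cyclins, kept to 103.6 to 148.8 CPM in LOS, MOS, UOS, plate 1, OSalive and OSapop. The CatVI plates went to both sides: 389.7 on plate 2 and 236.6 on plate 6, with 49.4% and 75.0% of counts from 1 cell, and 76.5 on plate 5.

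Rb1, the substrate of these kinases, was at 148.6 CPM on plate 5 and 140.1 on plate 6, above all other sorts. Those were at 80.1 in OSapop, 79.03 in UOS, 59.9 in OSalive, 53.8 in LOS, 44.7 on plate 1, 31.5 in MOS and 9.99 on plate 2, where all 4 counts lay in 1 cell. The intervals of plates 5 (124.5 to 175.97) and 6 (102.2 to 187.4) overlapped each other and no other sort. The breadth over cells followed: 66.7% and 61.5% of thinned cells on plates 5 and 6 had a count, against 20.8% to 33.7% in LOS, MOS, UOS, plate 1, OSalive and OSapop and 0 of 8 on plate 2. On plate 6, 1 cell held 48.9% of the counts.

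**Figure D2:**
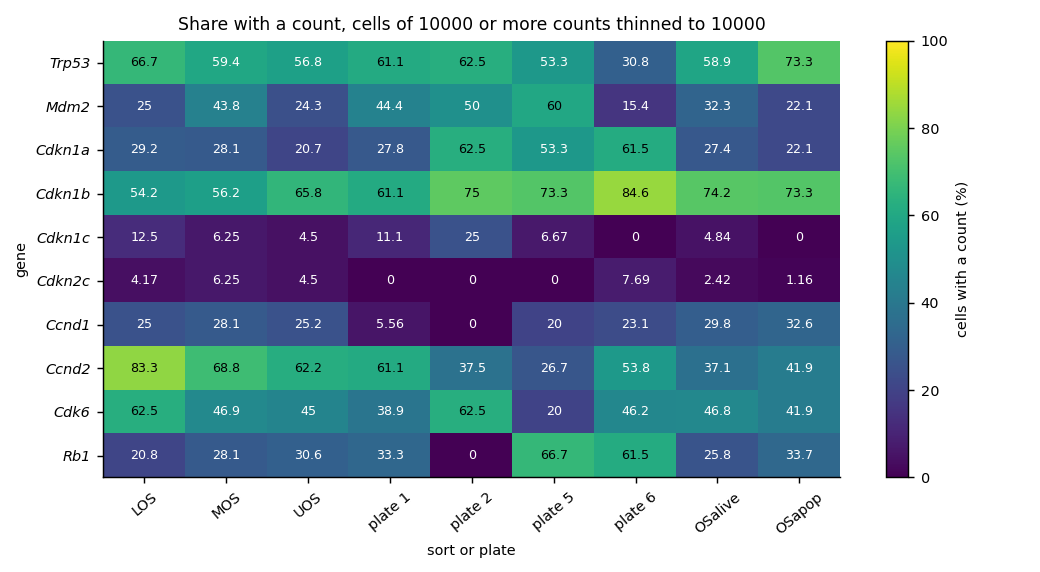
Share (%) of cells with a count of each gene in each sort or plate, among cells with 10000 or more protein-coding counts, each thinned to 10000 (8 cells on plate 2, the fewest); 15 of the 39 LOS cells were too shallow and are not in it. Cdkn1a and Rb1 were counted in over 50% of the cells of plates 5 and 6, and Ccnd2 in 83.3% of the 24 LOS cells deep enough to be thinned, against 26.7% of the 15 on plate 5.

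**Figure D3:**
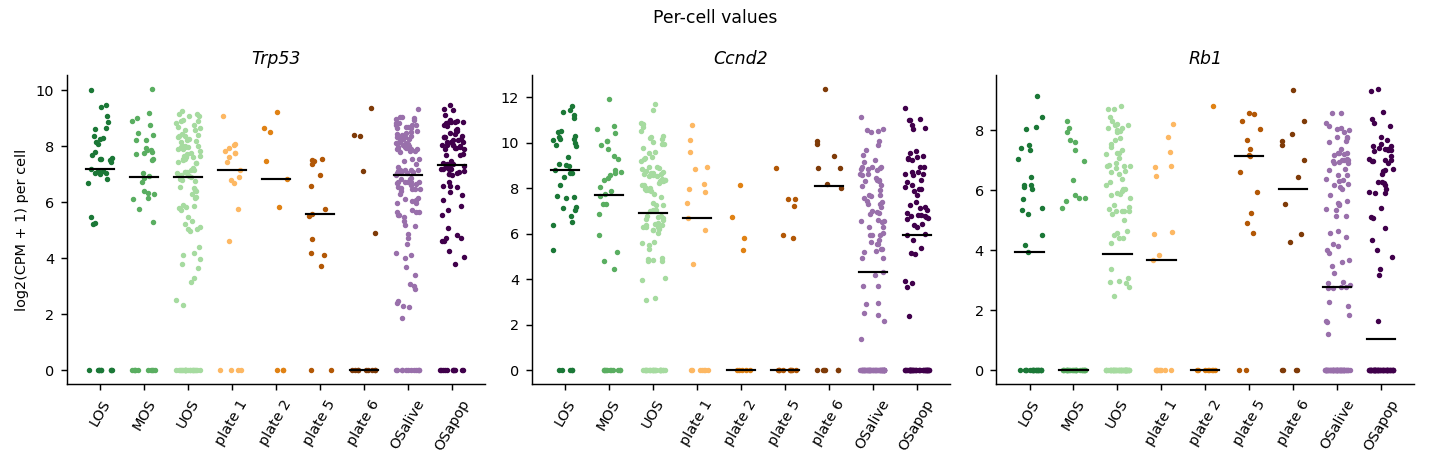
Trp53, Ccnd2 and Rb1 in each passing cell, as log2(CPM + 1), by sort or plate; a point is 1 cell and the line the median. Most sorts mixed cells with no count and cells above 100 CPM. The median Rb1 was above 0 on plates 5 and 6, and also in LOS, UOS and OSalive, but 0 in MOS and on plate 2.

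Compared with one another per length of transcript, in UOS, the genes ran from Trp53 at 92.7 CPM per kb over Ccnd2 (71.5), Cdkn1a (43.2) and Cdkn1b (40.15) to Ccnd1 (16.8), Mdm2 (15.98), Rb1 (15.8) and Cdk6 (12.8), with Cdkn1c (3.73) and Cdkn2c (3.22) last. In OSalive Trp53 (95.02 CPM per kb) and Cdkn1b (51.3) led, and Ccnd2 stood at 28.7.

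For comparisons between sorts, the log2 ratio of CPM was set against the median over all protein-coding genes with 100 or more counts in both groups together, and a gene was counted as higher or lower when it lay 1 log2 unit (2-fold) or more from that median. The share of all such genes past that line is given as background beside each count of members. The gene lists set beside the members also hold some of them and are not independent of them. Mdm2 and Cdkn1a are among the p53 targets, Trp53 and Mdm2 in the p53 family list, and Rb1 among the pocket proteins.

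The stage comparison placed regression against growth in the upper follicle. In CatVII (OSalive and OSapop) against UOS and MOS, 0 of the 10 members were past 2-fold in either direction, where 13.3% of all genes were higher and 17.8% lower. The members nearest the line were Cdkn2c, 0.90 log2 units below the median gene (interval -1.21 to -0.59), Ccnd2 at -0.89 (-0.93 to -0.85) and Ccnd1 at 0.58 (0.49 to 0.67). For Ccnd2 this joined 2 unlike sorts, and without OSapop it was 1.28 below. Of 29 measured p53 targets, 2 were higher and 8 lower, with a median of -0.17. Ddb2, a DNA repair factor, was higher by 1.46, and Bax, a pore-forming death effector, lower by 2.06 (-2.29 to -1.84). Among 15 genes of the p53 family and its regulators 3 were higher and 2 lower, with Trp73 at 2.17, Ppp1r13l, an inhibitor of p53, at 1.54, the kinase Chek2 at 1.11 and the ligase Cop1 at -1.04. Other marker lists moved with this comparison: dissociation genes were higher in 5 of 13 cases and lower in 2, with sums of 8813 CPM in OSalive and 4770.5 in OSapop against 5702 in UOS and 6663 in MOS. Inner root sheath markers were lower in 5 of 7 cases (264.9 and 289.7 CPM in the CatVII sorts, 4289 in UOS, 192.6 in MOS), and melanocyte markers in 4 of 4 (5.30 and 6.93 CPM against 66.1 and 22.4). Their part in the members' ratios was not tested.

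In CatVI (57 cells of 4 plates) against the same UOS and MOS cells, 1 member was higher (15.2% of all genes) and 1 lower (20.2%). Both were low transcripts: Cdkn1c at 1.11 (0.58 to 1.61) and Cdkn2c at -1.38 (-2.62 to -0.36). Mdm2 (0.89), Cdkn1b (0.87) and Cdkn1a (0.72) stayed inside the line on the upper side and Ccnd2 (-0.80) on the lower. Cdkn1a passed the line under 10 of 22 alternatives, among them as a mean over cells (1.47) and after thinning (1.33). The control sorts are those of the CatVII comparison, so the 2 sets of ratios are not independent. The third D-type cyclin, Ccnd3, was at 107.5 CPM against 284.3 (-1.27), and 14 of 18 proliferation genes were lower, with a median of -1.78. Dissociation genes were lower in 5 of 13 cases, fibroblast markers in 4 of 5 (19.96 to 259.8 CPM in sum per plate) and inner root sheath markers in 5 of 7 (158.6 to 616.4 CPM). Melanocyte markers were higher in 3 of 5 cases, with 992 CPM on plate 2 and 0 to 9.64 on the other 3 plates, and endothelial markers in 3 of 3, with 252.5 CPM on plate 1 and 0 to 6.23 on the others. Their part in these ratios was not tested.

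In LOS (39 cells) against UOS and MOS, 0 members passed the line (13.2% of all genes higher, 14.5% lower). Ccnd2 came nearest at 0.75 (0.67 to 0.82), and without the cell with most counts in each group it was 1.06 above the median. Cdkn2c was at 0.67 (0.05 to 1.25) and Trp53 at 0.49, while Ccnd1 was at -0.69 and Rb1 at -0.54. At the same time 15 of 19 proliferation genes were higher and none lower, with a median of 2.34, and of the pocket proteins and E2F factors E2f3 was higher by 2.14 and Rbl2 at -1.496. Immediate early and heat shock genes of dissociation were lower in 6 of 13 cases and higher in none. Fibroblast, melanocyte and endothelial markers were higher in 4 of 5, 5 of 5 and 3 of 3 measured cases, and ORS and bulge markers lower in 8 of 10. Their part in the members' ratios was not tested, but among cells without such markers Cdkn2c (1.63) and Cdk6 (-1.06) passed the line and Ccnd2 turned to -0.29.

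MOS against UOS compared 2 sorts of the same stage and region label. Here 2 members were higher (11.1% of all genes) and 1 lower (16.4%): Ccnd1 at 1.39 (1.18 to 1.60), Cdkn1c at 1.32 (0.64 to 1.96) and Rb1 at -1.13 (-1.56 to -0.73). Without the cell with the most counts of the gene in each group Ccnd1 came to 0.94 and Rb1 to -0.82, and as a mean over cells Rb1 came to -0.46 and Cdkn1c to 0.03. Rbl2, the p130 pocket protein, was also lower (-1.33), and 6 of 12 genes of the pocket and E2F list were, with the member Rb1 counted among them. Markers of other lineages were lower in MOS as well: 6 of 7 of the inner root sheath (192.6 against 4289 CPM in sum), 4 of 5 of fibroblasts (76.3 against 1706), 3 of 4 of melanocytes (22.4 against 66.1) and 2 of 2 of endothelium (0.606 against 37.7). In MOS Col3a1, Pdgfra and Lum were at 0, as were Krt27, Mlana, Pecam1, Kdr and Emcn. Their part in the members' ratios was not tested.

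OSapop against OSalive asked what annexin V positive cells differ in at CatVII. There was 1 member higher (7.76% of all genes) and 1 lower (11.3%). Ccnd2 was at 445.5 against 181.7 CPM, 1.32 log2 units above the median gene (1.27 to 1.37), and Cdkn1c was 6.77 below it (-12.08 to -4.29) on its single count. The Ccnd2 ratio was 0.61 as a mean over cells and 0.48 after thinning, and 1 cell held 23.03% of the OSapop counts. Trp53 was at 0.39, Ccnd1 at 0.47 and Rb1 at 0.44, while Mdm2, Cdkn1a and Cdkn1b lay within 0.09 of the median gene. Of 28 p53 targets, 2 were higher and 1 lower (median 0.08), and of 20 proliferation genes 5 were higher and none lower (median 0.58). Of the pocket proteins and E2F factors, E2f1, E2f2 and E2f7 were past 2-fold higher, by 1.124, 1.73 and 1.405. E2f3 and E2f5 were past it on the lower side, at -1.12 and -1.05. E2f7, E2f3 and E2f5 were low transcripts, at 13.2, 4.97 and 4.29 CPM in OSapop against 5.09, 11.01 and 9.05 in OSalive. After thinning, 22.1% of OSapop cells (13.9 to 32.3) had counts of 2 or more proliferation genes, against 30.6% in OSalive (22.7 to 39.6). These intervals overlapped, so the shares did not separate the sorts. Without thinning, single genes went both ways. A Mki67 count was in 11.96% of OSapop and 7.2% of OSalive cells, and a Mcm4 count in 30.4% and 47.2%. Dissociation genes were lower in 5 of 13 cases and fibroblast markers in 3 of 6, and their part in these ratios was not tested.

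Plates 1 and 2 carry the same label and show how far 2 plates can differ. Of the 5 members measured, 1 was higher on plate 1 (23.3% of all genes) and 2 lower (20.6%): Ccnd2 by 2.001 (1.46 to 2.59), Cdk6 by -1.90 (-2.24 to -1.56) and Cdkn1b by -1.65 (-1.92 to -1.39). Plate 2 had 9 passing cells, 34.8% mitochondrial counts (8.83% to 23.02% in the other sorts) and melanocyte markers at 992 CPM against 9.64 on plate 1.

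Against this, plate 5 (Phago apop, 15 cells) compared with plates 1 and 2 (Phago alive, 28 cells) had 3 of 8 measured members higher (14.6% of all genes) and 3 lower (17.7%). Rb1 was higher by 2.26 (1.80 to 2.74), Mdm2 by 1.26 (0.86 to 1.66) and Ccnd1 by 1.06 (0.56 to 1.56), and Cdkn1a lay just inside the line at 0.9976. Ccnd2 was lower by -1.51 (-1.89 to -1.15), Trp53 by -1.15 (-1.55 to -0.77) and Cdk6 by -1.09 (-1.50 to -0.71). Against plate 1 alone and plate 2 alone, Trp53 was at -1.08 and -1.65 and Rb1 at 1.88 and 3.91, so both passed the line with either plate. Ccnd2 was at -1.89 and 0.14, Cdk6 at -0.47 and -2.34, Mdm2 at 1.51 and 0.44, and Ccnd1 at 0.57 against plate 1, so these 4 rested on 1 of the 2 plates. Rb1 itself was higher on plate 1 than on plate 2 by 1.99 (0.55 to 3.92), on 51 and 4 counts, too few to be measured there. The 3.91 against plate 2 rests on those 4 counts. Of 13 measured p53 targets 5 were higher and 1 lower (median 0.78), and the member Mdm2 is counted among the 5. Perp, a desmosomal p53 target, at 2759 against 745 CPM, and Sfn (14-3-3 sigma), at 1082 against 530, were others. The repair factor Xpc was at 28.8 against 158.4 CPM. Of 11 measured genes of the p53 family and its regulators, 4 were higher and 2 lower: beside Mdm2, the ubiquitin ligases Cop1 (1.76) and Rchy1 (1.304) and the p53 inhibitor Ppp1r13l (1.51), and on the lower side Trp53 and the damage kinase Atm (-1.06). ORS markers were higher in 5 of 9 cases and lower in 2, dissociation genes lower in 3 of 12 and both measured melanocyte markers lower, and their part in these ratios was not tested. The cell cycle list stood at 42.1 CPM in sum on plate 5 against 327 on plate 1 and 240 on plate 2.

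Plate 5 against plate 6 (NonPhago apop, 14 cells) had 2 of 6 measured members higher (16.3% of all genes) and 2 lower (11.8%). Cdkn1b was higher by 1.10 (0.65 to 1.57) and Mdm2 by 1.09 (0.38 to 1.87). Ccnd2, at 82.05 against 486 CPM, was lower by -2.62 (-3.04 to -2.22) and Cdk6 by -1.69 (-2.18 to -1.20). On plate 6 most counts of Mdm2 and of Cdk6 came from a single cell, as given above, which the intervals do not cover. Rb1 (0.03) and Cdkn1a (-0.03) were within the counting error of the median gene, with intervals of -0.47 to 0.55 and -0.51 to 0.46. Dissociation genes were lower in 4 of 9 cases and ORS markers higher in 3 of 8, and their part was not tested.

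**Figure D4:**
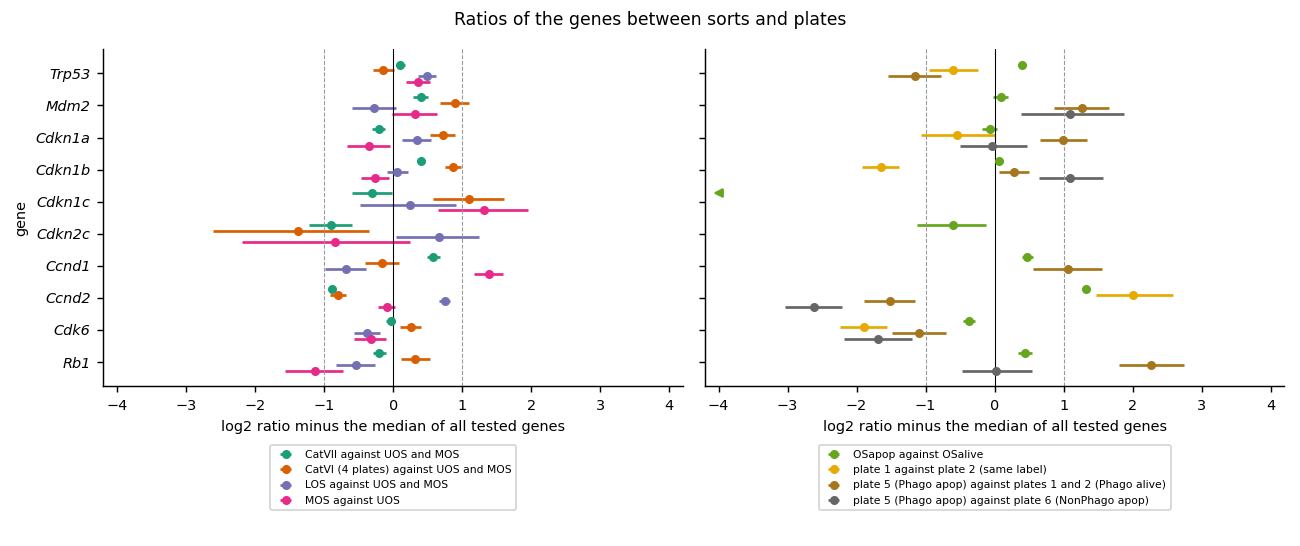
Log2 ratio of each measured gene in the 8 comparisons, minus the median of all tested genes, with 95% exact binomial intervals (counting error only); dashed lines mark 2-fold, and the arrow stands for Cdkn1c in OSapop against OSalive, at -6.77 beyond the axis. Rb1 on plate 5 against plates 1 and 2, at 2.26, was the farthest to the right.

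Within the sorts, the G1 genes were also compared between cells that held counts of 5 or more of 20 cell cycle genes (such as Mki67, Top2a and Mcm2) and cells that held fewer. This split was chosen after the values had been seen, a deeper cell holds more genes, and none of the 10 members is in the list. There were 19 such cells in LOS, 9 in MOS, 25 in UOS, 16 in OSalive and 11 in OSapop, or 48.7%, 23.7%, 22.3%, 12.8% and 11.96% of the cells, and 4 to 18 cells per sort had 4 or 5 of the genes. Median counts per cell were 38848 against 12655.5 in LOS, 17668 against 29595 in MOS, 138799 against 80386 in UOS, 436348 against 324978 in OSalive and 157084 against 78548 in OSapop.

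Ccnd2 was higher in the cells with cycle genes in all 5 sorts. The levels were 1062 against 211.3 CPM in LOS, 1042 against 196.1 in MOS, 895.5 against 235.9 in UOS, 445 against 130.5 in OSalive and 1264 against 265.9 in OSapop. Relative to the median gene this was a difference of 2.08, 2.57, 1.85, 1.81 and 2.38 log2 units, where 20.8%, 15.3%, 12.8%, 16% and 17.9% of all genes were 2-fold higher in these sorts and 19.1%, 18.5%, 12%, 18.6% and 21.9% lower. A second split divided the cells with 10000 or more counts at 2 cycle genes after thinning to 10000. Levels were taken from all counts of these cells, so depth was equalized for the split alone. Ccnd2 was still higher in the 5 sorts. It stood at 961 against 214.9 CPM in LOS, 769.8 against 255.8 in UOS, 332.2 against 116.5 in OSalive and 974 against 277.6 in OSapop. The gap was narrower than at the first split in all 5 sorts, and most so in MOS, with 508.9 against 240.99 CPM. In LOS, dividing the cells by markers of other lineages gave like contrasts. Cells with such markers had Ccnd2 at 946 against 260 CPM and Cdkn1a at 133.1 against 21.7. UOS cells with such markers also had more Ccnd2 (604 against 384 CPM), Ccnd1 (89.2 against 52.2) and Cdkn1a (154.9 against 50.5). In OSapop, Ccnd2 (389.4 against 470.4 CPM) and Cdkn1a (53.2 against 71.6) were lower in the cells with such markers. Whether the differences by cycle genes belong to those genes or to these markers was not tested in any sort.

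Most Cdkn2c counts lay in the cells with cycle genes in 4 of the 5 sorts. All 30 of its counts in LOS and all 41 in OSapop fell in them, as did 98.2% in OSalive and 84.6% in UOS, but 1 of 7 in MOS. The cells with cycle genes that carried them were few, 7 in LOS, 4 in UOS, 5 in OSalive and 4 in OSapop. Among the cells with fewer cycle genes, another 4 in UOS and 1 in OSalive held a count, so in UOS the carriers were not confined. At the thinned split its level was 15.8 against 0 CPM in OSalive and 19.9 against 1.72 in UOS.

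Ccnd1 was past 2-fold higher in the cells with cycle genes in LOS (2.47), UOS (1.15), OSalive (1.05) and OSapop (1.73), and at 0.13 in MOS. Cdkn1a was past the line in LOS (1.95), UOS (1.26) and OSapop (1.28) and at 0.55 in OSalive. The quiescence-associated inhibitor Cdkn1b went the other way in 3 sorts without passing the line (-0.55 in UOS, -0.72 in OSalive, -0.22 in OSapop). It was slightly higher in LOS (0.16) and MOS (0.26). Cdkn1c was lower at 2.15 against 9.67 CPM in UOS (-2.25) and at 4.85 against 9.06 in OSalive. Cdk6 passed the line only in MOS (1.02), with values from -0.11 to 0.52 in the other 4 sorts. Rb1 passed it in LOS (1.46) and Trp53 in MOS (1.25). Mdm2 was 1.55 lower than the median gene in the cycling cells of OSapop and 0.78 higher in those of OSalive.

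**Figure D5:**
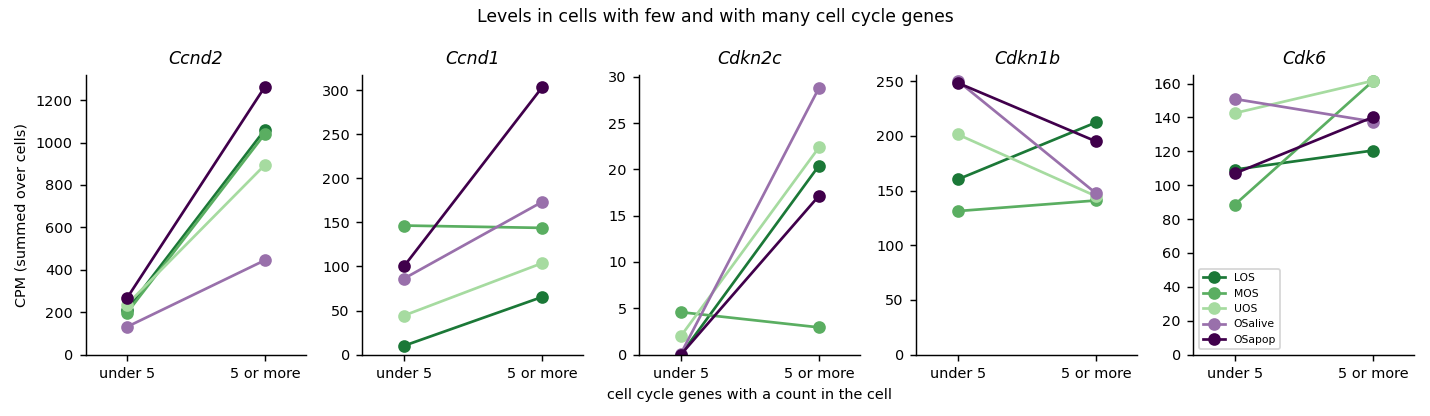
Summed level (CPM) of 5 genes in cells with under 5 and with 5 or more of 20 cell cycle genes, in the 5 sorts with at least 9 such cells; lines join the 2 values of a sort. Ccnd2 was higher on the right in all 5 sorts, Cdkn2c in 4, and Cdk6 showed no common direction.

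Cell by cell, the members were only weakly ordered against each other. At 10000 counts per cell, the largest rank correlation between 2 members was 0.31 (Trp53 with Ccnd2 and Trp53 with Ccnd1, both in UOS), and the lowest -0.27 (Cdkn1b with Ccnd2 in OSalive). Both cyclins were counted together in 15 of 86 OSapop cells, Ccnd1 alone in 13, Ccnd2 alone in 21 and neither in 37. These counts are sparse and share the depth and library of their sort.

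Over the 9 sorts, the genes most like each member in log2(CPM + 1) were taken from 10688 expressed genes (10689 for Cdkn2c) as a description. For Trp53 they were Herpud1, Lzts3 and Rab2b (Pearson r from 0.97 to 0.96), for Mdm2 Ehf, Zfp276 and Pex11a (0.93 to 0.92), and for Cdkn1a Cmas, Tmem229b and Kdm7a (0.97 to 0.95). Cdkn1b ran closest to Nbn, Adam8 and Smurf2 (0.97), Cdkn1c to Etaa1, Ptger1 and Ttc33 (0.94 to 0.91), and Cdkn2c to Mtres1, Klhl23 and Phgdh (0.95 to 0.94). Ccnd1 was nearest to Gnl1, Myo1d and Rgp1 (0.99 to 0.98), Ccnd2 to Aifm2, Arhgap11a and Wdr46 (0.98 to 0.93), Cdk6 to Mecr, Aloxe3 and Wrn (0.96 to 0.94) and Rb1 to E2f6, Tex9 and Elac1 (0.97 to 0.96). With 9 points, of which 4 are small plates, many genes reach such values. Among the members, Mdm2 and Ccnd2 were the most opposed (r = -0.89) and Ccnd1 and Rb1 the most alike (0.74).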

How the data were processed

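Single ORS cells of wild type mouse skin were sequenced by Smart-seq2 with ERCC spike-ins. The authors aligned reads to mm39 with STAR 2.6 and quantified them with Salmon 1.4.0; the deposited table holds estimated counts per gene, not normalized, which were rounded here. Identifiers were matched to GENCODE vM39 (93.348% of 55335 rows). Of 1037 labelled cells, 1 had no column of counts in use and 1, with conflicting labels, was left out. Sorts follow the labels. Cells with 2000 or more detected genes (39 LOS, 38 MOS, 112 UOS, 19, 9, 15 and 14 on plates 1, 2, 5 and 6, 125 OSalive, 92 OSapop) were summed per sort, with CPM over 21591 protein-coding nuclear genes. Since no sort had replicates, no test was run: ratios were centred on the median of genes with 100 or more counts, a group at 0 counts was set to 3 counts, and intervals are exact at 95% (Poisson for levels, binomial for shares and ratios). Shares were also taken after thinning cells to 10000 counts, leaving out shallower cells. No doublets were called. List genes are named when past 2-fold with 20 or more CPM in the higher group, at most 3 in each direction. E2f7, E2f3 and E2f5 in OSapop against OSalive are named although they lie below that level. The members, lists and rules were chosen with earlier results of these data known. Scripts ran in Python 3.11.15 (numpy 2.4.6, pandas 2.3.3, scipy 1.17.1) and R 4.3.3 with edgeR 4.0.16 for TMM factors only, and were tested on simulated counts.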

Additional observations from a re-analysis of the deposited data

Results flagged for a closer look

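The apop to alive ratio of Trp53 had opposite signs at the 2 stages, between groups that are not alike: the CatVI plates hold Phago-labelled cells, while OSapop and OSalive are not divided by that label. At CatVI, plate 5 was below both alive plates (-1.08 log2 units against plate 1 and -1.65 against plate 2, relative to the median gene, and -1.15 against both), while at CatVII OSapop was above OSalive by 0.39. The 2 differences are -1.55 log2 units apart. With 1 sample per group this difference was not tested.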

How the results depend on the processing

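No paired analysis was possible because no sort or plate has replicates that carry a shared number, and cells were not traced to animals. The number of members past 2-fold changed with the settings as follows, and the cause was not tested where no construction explains it. For CatVII against UOS and MOS it was 0, and 1 or 2 under 9 of 22 alternatives (2 without centring over all gene rows, at 1.5-fold and without OSalive). For CatVI it was 2, with 0 at 3-fold and with 500 or more counts, 1 without centring, with TMM, after thinning, without plate 2 and without cycling cells, 4 with length-matched centring and without UOS, 5 without plate 1 and 6 with spike-in scaling and at 1.5-fold. For LOS it was 0, with 1 to 3 in 8 alternatives and 6 with spike-in scaling. MOS against UOS had 3, with 0 at 3-fold and without the top cell of each gene, and 1 after thinning and without the deepest cells. OSapop against OSalive had 2, with 0 after thinning and 1 as a mean over cells, without the deepest cells, with 500 or more counts and at 3-fold. Plate 1 against plate 2 had 3, with 7 at 20 or more counts, 1 under spike-in scaling and 0 after thinning and with 500 or more counts. Plate 5 against plates 1 and 2 had 6, with 0 after thinning and with 500 or more counts, where fewer members were measured, 1 at 3-fold and 3 as a mean over cells and without plate 1. Plate 5 against plate 6 had 4, with 0 to 2 in 6 settings. Single genes reversed in 2 cases: Cdkn1c in MOS against UOS without the 5% deepest cells (-0.024) and Ccnd2 on plate 5 without plate 1 (0.14). The share of all genes past 2-fold moved from 27.7% to 63% in LOS and from 35.3% to 58.8% in CatVI under spike-in scaling. Rb1 on plate 5 against plates 1 and 2 stayed past the line in the 16 alternatives that gave it a value (1.61 to 3.91), Trp53 in 14 of 16 (-1.65 to -0.79) and Cdkn1c in OSapop in the 13 that gave one (-7.14 to -4.65). Levels rest on few cells: 49 of 90 left their counting interval as a mean over cells, and none with 1000 or more genes per cell. Plates 1, 2, 5 and 6, with 9 to 19 cells, limit every CatVI value.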
